A study of Mus musculus with 2 samples.

Results

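The vascular miRNAs mmu-miR-126-3p, mmu-miR-126-5p, mmu-miR-143 and mmu-miR-145 were examined in mouse quadriceps, a large thigh muscle. The first pair are the arms of one endothelial hairpin, and miR-143 and miR-145 are neighbours in a smooth muscle cluster. They were taken by their exact names from 1023 mouse miRNAs on the array, and all 4 were present. Each name had 2 probes, and each probe had 20 spots per array. The NF90-NF45 dbTg sample came from female mice aged 15 to 16 weeks that carry transgenes for both NF90 and NF45. The WT sample came from wild-type female mice of the same age range. With 1 array per genotype the design allows no test and no replicate error, and a difference is one between a dbTg RNA sample and a WT RNA sample. Whether either sample is 1 animal or a pool is not stated in the labels, and the promoters of the transgenes are not given in the sources used here.

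NF90 and NF45 form a complex that binds double-stranded RNA and is known to hinder the processing of some primary miRNA transcripts in the nucleus. miR-126 lies in an intron of Egfl7, a gene of endothelial cells, and its 3p arm is known to favour VEGF signalling and vessel integrity by repressing Spred1 and Pik3r2. The 5p arm is known to repress Dlk1 and so to permit endothelial proliferation. miR-143 and miR-145 are made from one transcript under the control of SRF and myocardin, and are known to hold vascular smooth muscle in its contractile state. miR-145 represses Klf4 and Klf5, and miR-143 represses Elk1. Pericytes and fibroblasts also make both, so in a muscle extract these miRNAs mark mural and other mesenchymal cells in a broad sense.

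The miR-126 sequences are shown because both arms, which give unlike readings below, come from a single RNA. In the RefSeq tables for GRCm38.p6 the Mir126a hairpin occupies chromosome 2, plus strand, positions 26591357 to 26591429, within the span of Egfl7 from 26581083 to 26592682. The mature 3p arm is given with its seed (bases 2 to 8) in capitals. Of 1738 mature miRNAs in the RefSeq table, 1 has this seed, namely miR-126a-3p itself. In the hairpin, capitals mark the bases that the array's probes pair with, bases 9 to 29 for the 5p arm and 49 to 67 for the 3p arm.
miR-126a-3p: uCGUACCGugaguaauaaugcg
Mir126a hairpin: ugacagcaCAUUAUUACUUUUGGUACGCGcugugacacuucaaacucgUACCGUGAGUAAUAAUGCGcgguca

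The probes themselves are given 5′ to 3′ as the array files hold them, and a capital marks the base that the longer probe of an arm has beyond the shorter one. The files place the 3p probes on mm9 chromosome 2 from 26446926 to 26446943 and the 5p probes from 26446886 to 26446905, each span 1 base shorter than its probe.
miR-126-3p, 18 bases: cgcattattactcacggt
miR-126-3p, 19 bases: cgcattattactcacggtA
miR-126-5p, 20 bases: cgcgtaccaaaagtaataat
miR-126-5p, 21 bases: cgcgtaccaaaagtaataatG
RefSeq also lists miR-126b on the opposite strand of the same place.

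The probes of miR-143 (15 and 16 bases) and miR-145 (13 and 14 bases) match chromosome 18, where the 2 matches are 1387 bases apart. No probe of the 4 miRNAs came within 2 mismatches of another mouse miRNA's probe, and the fewest mismatches were 3.

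Each array held 43200 spots for miRNAs, of which 17.7% were well above background on the dbTg array and 14.9% on the WT array. All 160 spots of the 4 vascular miRNAs were well above background on the dbTg array and 159 of 160 on the WT array, with no spot saturated. Spots marked as outliers were left out, 16 on the dbTg array and 6 on the WT array. Signals were divided by the 75th percentile of detected probes, which was 1220 for the dbTg array and 881.9 for the WT array, and the scaled values below are multiples of it. The errors are standard deviations (SD) or standard errors over spots (spot SE), and reflect how well repeated spots of a probe agreed, not animals. Negative control spots averaged 5.24 ± 5.99 on the dbTg array and 6.11 ± 5.99 on the WT array before scaling.

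The smooth muscle cluster was lower in dbTg quadriceps and the endothelial hairpin was close to the typical miRNA. miR-143 had a log2 ratio of dbTg over WT of -0.65 (spot SE 0.013) and miR-145 of -0.65 (spot SE 0.031), so both were lower in dbTg by 1.57-fold. miR-126-3p had a log2 ratio of 0.13 (spot SE 0.011) and miR-126-5p of -0.095 (spot SE 0.041). The median of the 175 miRNAs detected on both arrays was 0.0031. None of the 4 vascular miRNAs differed by at least 2-fold, a size that 21.7% of the 175 reached in one direction or the other (11.4% higher and 10.3% lower in dbTg), and none by 3-fold, which 5.71% reached (2.86% higher and 2.86% lower). At a size of 1.5-fold, miR-143 and miR-145 counted as lower and neither arm of miR-126 counted, where 50.3% of all miRNAs counted in one direction or the other and 25.1% as lower. That count of 2 fell to 0 on unscaled signals, where miR-126-3p counted as higher (0.60), and to 0 when spike-in probes set the scale. It was 1, miR-143, with normexp background correction. In a muscle extract, fewer cells of a type and less of the RNA per cell cannot be told apart.

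Before scaling, the mean spot signals of miR-143 were lower on the dbTg array, whereas the unscaled total gene signals of the scanner software were higher on it, 710.0 on the dbTg array and 604.8 on the WT array. Its 15-base probe had a mean of 776.6 ± 34.6 (SD, 19 spots) on the dbTg array and 884.0 ± 49.2 (SD, 20 spots) on the WT array. Its 16-base probe had 1116 ± 21.7 (SD, 15 spots) on the dbTg array and 1255 ± 36.7 (SD, 16 spots) on the WT array. All 15 dbTg spots of the longer probe lay below the lowest WT spot, and 16 of the 19 dbTg spots of the shorter one did. After scaling, the median spot of the 16-base probe was 0.916 on the dbTg array, within 0.882 to 0.948, and 1.43 on the WT array, within 1.354 to 1.501. The 2 probes gave log2 ratios of -0.66 and -0.64, which differ by less than their spot SEs of 0.023 and 0.013 together allow.

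miR-145 was a dim signal, but its spots stood clear of the negative controls. Its 13-base probe had 73.3 ± 7.23 (SD, 19 spots) on the dbTg array and 78.3 ± 9.40 (SD, 20 spots) on the WT array. Its 14-base probe had 124.3 ± 10.02 (SD, 20 spots) on the dbTg array and 149.5 ± 11.4 (SD, 20 spots) on the WT array. The unscaled spots of the 2 arrays overlapped for both probes, and the unscaled total gene signal was higher on the dbTg array, 74.1 against 64.4 on the WT array. After scaling, all 20 dbTg spots of the 14-base probe and 18 of the 19 dbTg spots of the 13-base probe were below the lowest WT spot. The log2 ratios were -0.56 (spot SE 0.051) for the 13-base probe and -0.73 (spot SE 0.036) for the 14-base probe, so the probes were further apart than those of miR-143. Their mean still lay next to miR-143. The ratio of miR-145 minus that of miR-143 was -0.0027 on the log2 scale, well inside its spot SE of 0.034. The pair ranked 135 and 136 of 175 from the highest ratio.

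miR-126-3p was brighter on the dbTg array before scaling and remained slightly higher after it. Its 18-base probe had 5502 ± 124 (SD, 19 spots) on the dbTg array and 3616 ± 133 (SD, 20 spots) on the WT array, and its 19-base probe had 7461 ± 116 (SD, 15 spots) on the dbTg array and 4942 ± 230 (SD, 20 spots) on the WT array. The dbTg and WT spots did not overlap for either probe before scaling. After scaling, 18 of 19 dbTg spots of the shorter probe and all 15 of the longer one lay above the highest WT spot. The 2 probes gave log2 ratios of 0.14 and 0.13, and the miRNA ranked 80 of 175. Its sign depended on the scaling. The log2 ratio was -0.015 when arrays were scaled on all mouse miRNA probes, -0.11 in scaled total gene signal and -0.042 in the authors' processed values. Unscaled, the total gene signal was higher on the dbTg array, 4863 against 2420 on the WT array.

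miR-126-5p spots overlapped between the arrays after scaling. Its 21-base probe had 410.0 ± 26.7 (SD, 20 spots) on the dbTg array and 306.6 ± 22.5 (SD, 19 spots) on the WT array. The scaled medians of this probe were 0.338 on the dbTg array and 0.348 on the WT array, with overlapping spots, although before scaling all 20 dbTg spots lay above the highest WT spot. Its 20-base probe had 70.6 ± 6.0 (SD, 17 spots) on the dbTg array and 56.2 ± 11.8 (SD, 19 spots) on the WT array. The coefficient of variation of its WT spots was 21.0%. The log2 ratios of the 21-base and 20-base probes were -0.049 (spot SE 0.032) and -0.14 (spot SE 0.076). The sign of miR-126-5p was positive on unscaled signals (0.37) and when spike-in probes set the scale (0.20).

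**Figure D1:**
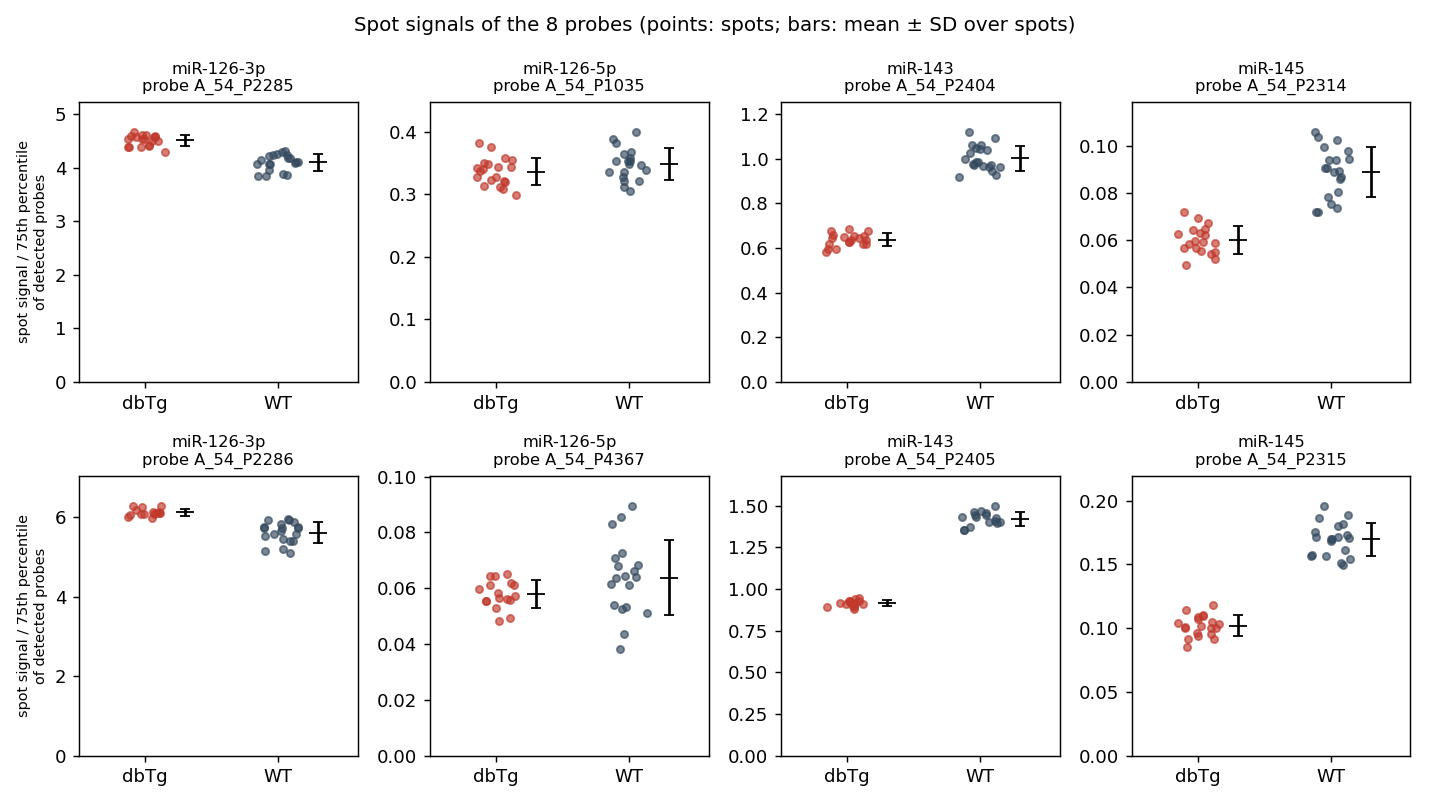
Scaled spot signals (vertical axis, multiples of the array's 75th percentile of detected probes) of the 8 probes on the dbTg array and the WT array, each point 1 spot and the bars the mean ± SD over spots. For miR-143 and miR-145 the dbTg spots sit below the WT spots, with an overlap only at the 13-base miR-145 probe, A_54_P2314, where 18 of 19 dbTg spots are below the lowest WT spot. The miR-126-5p spots overlap, and those of miR-126-3p are slightly higher on the dbTg array.

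The arms of the miR-126 hairpin differed from each other by less than they did from the cluster. miR-126-3p minus miR-126-5p was 0.23 (spot SE 0.042) on the log2 scale, a 1.17-fold difference in which any single scaling factor between the arrays cancels. Normexp background correction fits a model to the signals after local background is subtracted, and adds an offset of 50. With it the arm difference was 0.37, and with the brightest probe of each arm the difference was 0.18. It was above 0 under all 16 alternatives run. Those that only changed the scaling factor could not move it, and the other detection filters left it unchanged.

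The mean log2 ratio of miR-143 and miR-145 was -0.65 (spot SE 0.017) and that of the miR-126 arms was 0.019 (spot SE 0.021). The cluster minus the hairpin came to -0.67 (spot SE 0.027), so that relative to miR-126 the cluster was 1.59-fold lower in dbTg. This quantity also does not depend on a single scaling factor. It ranged from -0.72 with the brightest probe of each miRNA to -0.55 with normexp correction over the 16 alternatives. Many of these, the changes of scaling factor alone and of detection filter, left it at -0.67. Set against single arms, miR-143 was lower by 0.78 than miR-126-3p and by 0.55 than miR-126-5p on the log2 scale, and miR-145 by 0.78 and 0.55. In all 16 pairings of a cluster probe with a miR-126 probe, the cluster probe had the lower ratio. These pairings share probes and the same dbTg and WT samples, so they are not replicates. The separation is modest beside the spread over all miRNAs, since 37 of the 175 lay between the cluster and the lower miR-126 arm, and the 25th and 75th percentiles of all log2 ratios were -0.59 and 0.58. The share of miRNAs with a lower ratio was 22.9% for miR-143, 22.3% for miR-145, 44.6% for miR-126-5p and 54.3% for miR-126-3p. Whether the difference would recur in other animals was not tested.

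**Figure D2:**
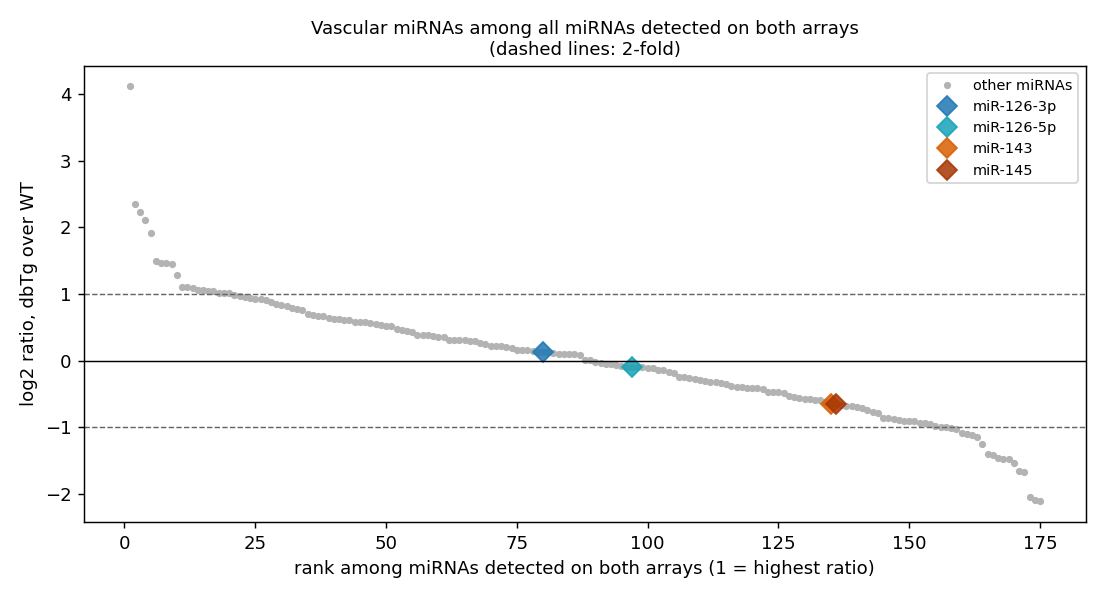
Log2 ratio of dbTg over WT (vertical axis) against rank (horizontal axis) for the 175 miRNAs detected on both arrays, with dashed lines at 2-fold. The miR-126 arms lie at ranks 80 and 97, near 0, and miR-143 and miR-145 at ranks 135 and 136, near -0.65.

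The second arms of the cluster's hairpins, miR-143* and miR-145*, were not detected. No spot of their 6 probes passed as well above background, on the dbTg or the WT array, and the probe means lay between -1.71 and 14.1 on the dbTg array and between -1.59 and 17.6 on the WT array before scaling. No ratio is therefore given for them, and a comparison of arms was possible for miR-126 alone.

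The authors' processed values, which carry their own scaling of unstated origin, placed the 4 miRNAs in the same order. They were 4.62 on the dbTg array and 8.14 on the WT array for miR-143, and 0.482 on the dbTg array and 0.867 on the WT array for miR-145. They were 31.6 on the dbTg array and 32.6 on the WT array for miR-126-3p, and 1.17 on the dbTg array and 1.38 on the WT array for miR-126-5p. On the log2 scale these give -0.82, -0.85, -0.042 and -0.24 in that order. Each value was the scanner software's total gene signal over a constant, 153.8 on the dbTg array and 74.3 on the WT array.

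Other miRNAs with a known role in endothelium and vessel growth differed in direction. Of 16 on the list, 12 were detected on both arrays, 4 were at least 2-fold higher in dbTg and 1 was at least 2-fold lower, where over all 175 miRNAs the counts were 20 and 18. Their median log2 ratio was 0.23. The 4 calls lie just past the threshold, and the count of higher miRNAs was 0 on all mouse probes, in total gene signal, in the authors' processed values and with 0.9 of spots required. miR-23a, miR-27a and miR-24, which regulate sprouting, had log2 ratios of 1.10, 1.10 and 1.05 (spot SE 0.0097, 0.0089 and 0.0083). miR-130a, which is known to repress the anti-angiogenic factors GAX and HOXA5, had 1.05. miR-221, which restrains Kit in endothelial cells, had 0.78. Its neighbour miR-222 and the hypoxia-induced miR-210 were detected on the dbTg array only. Of all 1023 mouse miRNAs, 36 were detected on the dbTg array only and 5 on the WT array only. miR-10a and miR-92a, an inhibitor of vessel growth, had 0.36 and 0.10, the second of which fell below 0 under 5 of the 16 alternatives. Below 0 were miR-10b (-0.37), miR-101a (-0.42), miR-139-5p (-0.48) and miR-101b (-0.90). miR-10b and miR-101a came to 0.093 and 0.044 without scaling. miR-378, an intronic miRNA of the PGC-1β gene that is abundant in muscle fibres, had -1.47. miR-132 and miR-296-5p did not pass as detected on the dbTg or the WT array.

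Regulators of smooth muscle state gave medians of opposite sign. The 4 on the list of contractile regulators had a median of -0.73, with miR-133a at least 2-fold lower (-1.14), miR-1 at -0.93, miR-22 at -0.53 and miR-204, which represses Runx2, at 0.63. With quantile normalization the median was -0.20, miR-1 was at -0.14 and miR-133a at -0.54. The 2-fold call of miR-133a was also lost on unscaled signals (-0.67) and on spike-in probes (-0.85). miR-1 and miR-133a are chiefly miRNAs of skeletal muscle fibres in this tissue, so this list does not measure vessels alone. Of the 7 regulators that favour smooth muscle proliferation or migration, 5 were detected on both arrays and 2 of these were at least 2-fold higher, a size that 11.4% of all 175 miRNAs reached. Their median was 0.81. The call of miR-24 was lost on all mouse probes (0.91), with quantile normalization (0.93), in total gene signal (0.81), in the authors' processed values (0.88) and with 0.9 of spots required (0.92). miR-146a was at 2.36, miR-24 at 1.05, miR-21, a repressor of Pdcd4, at 0.81 and miR-221, a repressor of p27, at 0.78. miR-26a was at -0.25 and came to 0.22 without scaling, and miR-31 and miR-222 were detected on the dbTg array only. Over all 1023 mouse miRNAs, 36 were detected on the dbTg array only and 5 on the WT array only. These miRNAs are also made by immune cells, fibroblasts and satellite cells, and 2 of the 5, miR-24 and miR-221, stand on the endothelial list too.

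Markers of other cells in the extract also differed between the samples, where 89 of all 175 miRNAs (50.9%) were above 0 and 20 were at least 2-fold higher. The 6 fibroblast miRNAs with a signal on both arrays were all above 0, the lowest miR-140 at 0.54 and the highest miR-214 at 1.04, with a summed scaled signal of 5.59 in dbTg and 3.26 in WT. Several settings put miR-214 under 2-fold, among them all mouse probes (0.89), normexp (0.46) and the authors' processed values (0.87). All 6 stayed above 0 there. Of 7 blood and immune cell miRNAs detected on both arrays, 5 were above 0 and 3 at least 2-fold higher. One of the 3, miR-223 (1.11), was under 2-fold on all mouse probes (0.96), with normexp (0.82), in total gene signal (0.87), in the authors' processed values (0.94) and with 0.9 of spots required (0.98). Their summed scaled signal was 4.92 in dbTg and 3.82 in WT, from -0.29 for miR-451 to 2.36 for miR-146a on the log2 scale. miR-451 comes from red cells, which share the vessels with the endothelium, and came to 0.18 without scaling. The 4 skeletal muscle miRNAs detected on both arrays had a summed scaled signal of 177.9 in dbTg and 314.7 in WT. Of these 4, 1 was at least 2-fold higher (miR-206, 4.11) and 1, miR-133a, at least 2-fold lower. Over all 175 miRNAs, 18 were at least 2-fold lower. The list's lower count was 3 on all mouse probes, in total gene signal, in the authors' processed values and with 0.9 of spots required. It was 0 without scaling, on spike-in probes and with quantile normalization. The list's median was -0.94, and -0.068 with quantile normalization. Of 11 miRNAs typical of liver, neuron, epithelial or islet cells, both arrays detected miR-192 (0.92), 4 others were among the 36 detected on the dbTg array only, and 6, with miR-122, miR-124 and miR-9 among them, were detected on neither. miR-192 was dim and did not pass with 0.9 of spots required. Its log2 ratio was 0.11 with normexp and 1.38 in the authors' processed values. miR-143 and miR-145, which fibroblasts are also known to make, were below 0, and the fibroblast miRNAs were above 0. The part of these cells in the vascular values was not tested.

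**Figure D3:**
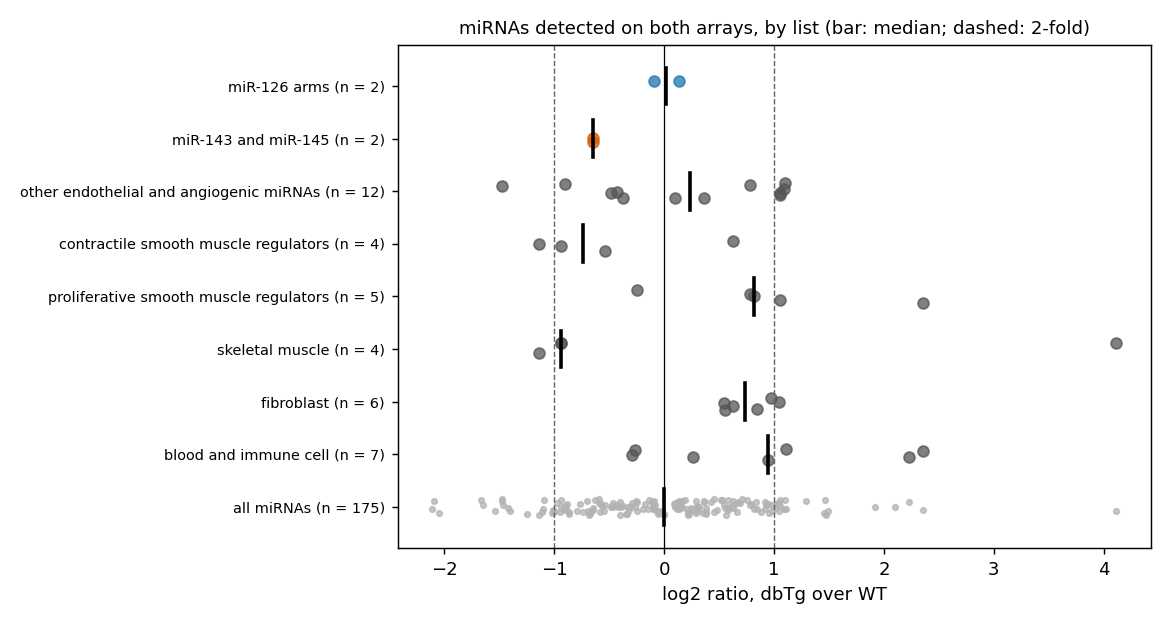
Log2 ratio of dbTg over WT (horizontal axis) of the miRNAs detected on both arrays, one row per list, with the median as a bar and dashed lines at 2-fold. The miR-126 arms lie on both sides of 0, miR-143 and miR-145 coincide near -0.65, and the 6 fibroblast miRNAs all lie above 0.

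By the size of the ratio alone, over 2 arrays, the miRNAs nearest to miR-126-3p were miR-374c, miR-301a and let-7i, at 0.13, 0.13 and 0.15. Those nearest to miR-126-5p were miR-1187, miR-103 and miR-30c-1*, at -0.091, -0.098 and -0.10. miR-143 and miR-145 had the same 3 nearest miRNAs, miR-149 at -0.67, miR-720 at -0.67 and miR-1274a at -0.62. miR-720 and miR-1274a have since been recognised as fragments of tRNAs. All these lay within 0.027 of the vascular miRNA they were matched to. Their spot SEs ran from 0.011 for miR-720 to 0.12 for miR-30c-1*. Several were wider than the gap, among them those of miR-374c (0.075) and miR-1187 (0.066), so such matches are not resolved.

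**Figure D4:**
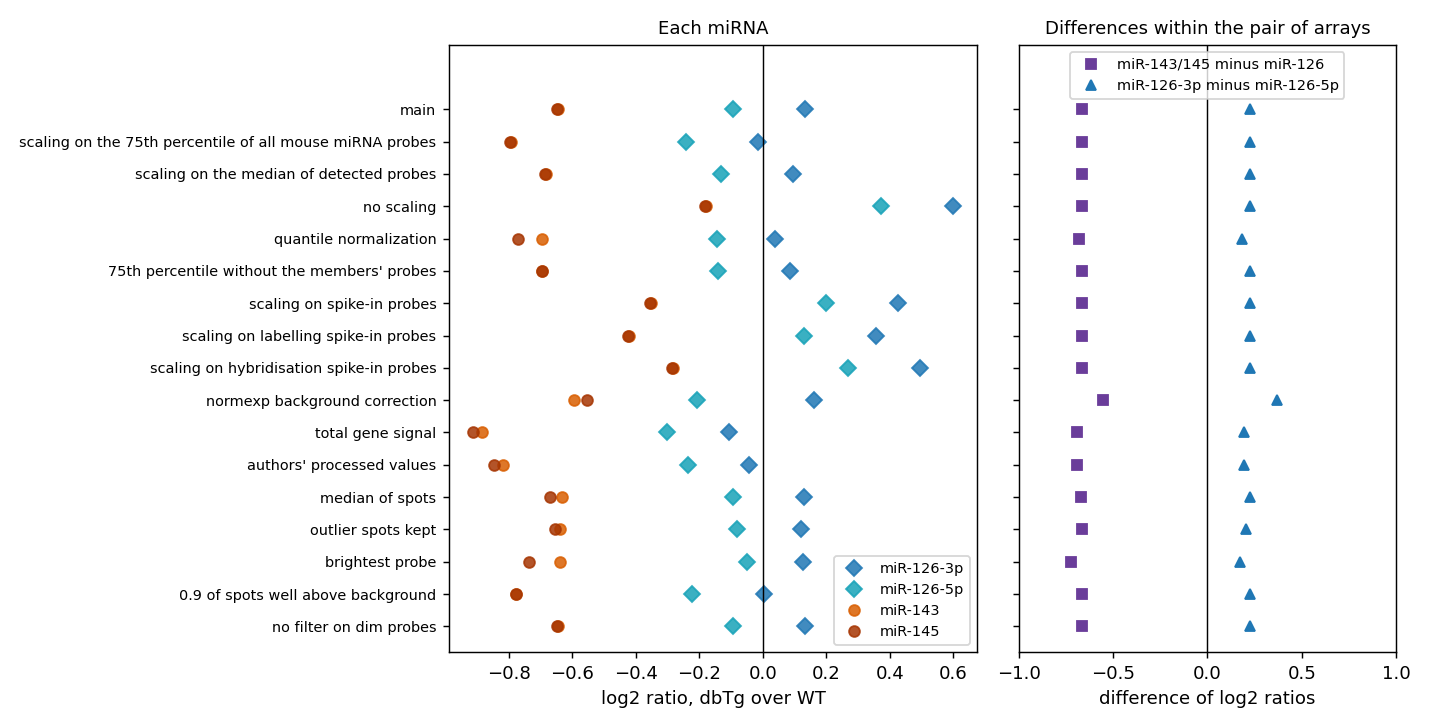
Log2 ratios of the 4 miRNAs (left) and differences of log2 ratios (right), on the horizontal axes, under the main setting and 16 alternatives, one per row. miR-143 and miR-145 are below 0 in every row, from -0.91 to -0.18, and the miR-126 arms cross 0. Cluster minus hairpin lies between -0.72 and -0.55, and a change of scaling factor alone cannot move it.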

How the data were processed

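Cy3 was the label of the quadriceps total RNA, per the labels' protocols. The spot intensities that the authors deposited come from version 10.7.3.1 of Agilent Feature Extraction, which subtracted a spatially detrended background and did not scale the arrays to each other, per the file headers. Both arrays belong to the same scan.

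Outlier spots were removed and the remaining spots of each probe averaged. A probe was detected if a share of 0.5 or more of its spots passed the well-above-background flag. Arrays were scaled on the 75th percentile of all miRNA probes detected on both, viral ones included. A miRNA's log2 ratio is the mean over its probes of dbTg minus WT. Normexp correction (offset 50) used limma 3.58.1. The other steps used Python 3.11.15. Averaging of spots, log2 ratios (apart from a common offset) and their spot SEs were tested on simulated data scaled on the median of detected probes. The 75th percentile scaling, the removal of outlier spots, the detection rule and the other alternatives were not tested in this way.

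The members and lists were chosen with earlier results of these data known. The list names miR-208a and miR-199b matched no name on the array. Named miRNAs are the 4 members, their second arms, list members and the 3 nearest ratios to each member. Sequences from chromosome 18 are not reported here. Alternatives were other scalings, background corrections, probe summaries, filters and sizes. Spike-in scaling used the 4 spike-ins that the file headers name, and scaling on the labelling or hybridisation spike-ins alone was added after seeing the data.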

Additional observations from a re-analysis of the deposited data

How the results depend on the processing

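Over the 16 alternatives other than size, miR-143 and miR-145 kept their sign and stayed under 2-fold, from -0.91 to -0.18 in log2 ratio. Unscaled total gene signal was not among these alternatives, and there the sign differed. It was higher on the dbTg array for miR-143 (710.0 against 604.8 on the WT array) and miR-145 (74.1 against 64.4). For miR-126-3p it was 4863 on the dbTg array and 2420 on the WT array. The cluster minus hairpin difference ranged from -0.72 to -0.55, and the arm difference from 0.18 to 0.37. Alternatives that only changed the scaling factor could not move these differences, and the other detection filters left them unchanged. Scaling moved the levels. Without scaling, the mean of miR-143 and miR-145 was -0.18 and that of the miR-126 arms 0.49. On spike-in probes these were -0.35 and 0.31, on labelling spike-ins alone -0.42 and 0.24, and on hybridisation spike-ins alone -0.28 and 0.38, the last 2 chosen after seeing the data. In scaled total gene signal they were -0.90 and -0.20, and in the authors' processed values -0.83 and -0.14. Scaling on all mouse miRNA probes gave -0.79 for the cluster. The shift without scaling equals the main factor between the arrays, 0.47 in log2. The shift on spike-ins equals that main factor minus the spike-in factor of 0.17. The cause of the shifts in total gene signal and in the authors' values was not tested. The number of members past the size was 0 at 2-fold and at 3-fold, and 2 at 1.5-fold in the main setting. At 1.5-fold it was 1 (miR-143) with normexp, 0 on spike-in probes and, unscaled, 1 (miR-126-3p, higher). Over all miRNAs, the main setting counted 20 higher and 18 lower. Without scaling these were 49 and 8, on spike-ins 35 and 11, on labelling spike-ins 33 and 12, on hybridisation spike-ins 39 and 11, on all mouse probes 10 and 31, with normexp 7 and 12, in total gene signal 10 and 32, in the authors' values 11 and 31, and with 0.9 of spots required 8 and 27. The median of all miRNAs moved to 0.47 without scaling, to 0.30 on spike-ins and to -0.21 in total gene signal. No paired analysis was possible because each genotype has 1 array. The number of arrays limits the precision, and the dim probes of miR-145 and miR-126-5p have the widest spot errors.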
